A study of Mus musculus with 9 samples.

Results

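The 10 genes described here, Col1a1, Col1a2, Col3a1, Dcn, Lum, Mgp, Igf2, Igfbp2, Aldh1a2 and Ptgds, are genes of the meninges and of fibroblasts, and were chosen by name. Of these 10, 9 were among the 26602 genes with a count in mouse midbrain, and Igf2 was listed in no library. The mice were 3 to 4 months old, 4 of them DJ-1+/+ and 5 DJ-1-/-, and each gave 1 library. Both genotypes came from heterozygous parents of a line carrying a targeted DJ-1 allele on a C57BL/6 background, so the allele was present in every cell type of the DJ-1-/- mice, and no mouse was treated. The tissue was midbrain including the substantia nigra pars compacta (SNpc). Whether the meninges were removed or the blood flushed out is not given in the sources used here.

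The meninges are the membranes that wrap the brain, and their inner layers follow blood vessels into the tissue. Fibroblasts of these layers, and those lying along larger vessels, lay down fibrillar collagens and the small proteoglycans that bind them. Meningeal fibroblasts are also known to make retinoic acid, insulin-like growth factors with their binding proteins, and prostaglandin D synthase, which are released into the cerebrospinal fluid. In a dissected block of brain the fibroblasts are a minor population beside neurons and glia. In such bulk tissue, fewer cells of a type and less RNA per cell cannot be told apart.

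With genotype alone in the model, no genotype difference was detected for any of the 9 counted genes. All 9 had overlapping values in DJ-1+/+ and DJ-1-/- mice, and in the quasi-likelihood test of edgeR 0 of 9 passed an unadjusted p of 0.05, against 2.82% of all 18127 genes tested (1.55% higher and 1.27% lower in DJ-1-/-). What these genes showed was a spread between mice of either genotype that was shared in part. Their summed level was highest in DJ-1+/+ replicate 3 and lowest in DJ-1-/- replicate 5. All 28 pairs among the 8 better-counted genes were positively correlated over the 9 libraries, with Pearson's r from 0.23 to 0.92.

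The 3 collagen genes are shown by the repeat that all collagens carry. The coding sequence of each consists for the most part of a run of triplets, glycine followed by any pair of amino acids, which lets collagen chains wind into a triple helix. In the GENCODE M21 transcripts the longest unbroken run was 338 repeats in Col1a1, 339 in Col1a2 and 344 in Col3a1, which was 69.7%, 74.1% and 70.4% of the coding bases. The first 54 bases of each run are printed 5′ to 3′ with the glycine codon (GGN) of each repeat in capitals.
Col1a1: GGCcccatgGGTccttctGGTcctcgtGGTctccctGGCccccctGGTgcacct
Col1a2: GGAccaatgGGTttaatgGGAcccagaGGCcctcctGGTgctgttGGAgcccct
Col3a1: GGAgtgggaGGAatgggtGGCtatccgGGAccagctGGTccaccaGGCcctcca

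Libraries were 3′ mRNA-seq libraries (QuantSeq) with unique molecular identifiers (UMIs), random tags by which PCR copies of 1 molecule are counted once. Reads come from the polyadenylated end of a transcript, so counts do not scale with the length of the gene, and levels of different genes were compared without dividing by length, within the limit on abundant genes given with Ptgds. Totals were 841974, 879901, 859549 and 886085 counts in DJ-1+/+ replicates 1 to 4, and 999042, 1098125, 969376, 967751 and 1026201 counts in DJ-1-/- replicates 1 to 5. All DJ-1-/- libraries were deeper than the DJ-1+/+ ones. Levels are given as cpm, counts per 1000000 counts of the library. A level of 3 counts, taken as the smallest that can be shown, was 2.73 to 3.56 cpm, which covers counting error only.

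Park7, which encodes DJ-1, had 132, 105, 113 and 118 counts in DJ-1+/+ and 23, 29, 14, 19 and 19 counts in DJ-1-/- mice (log2 fold change −2.71, standard error 0.15, adjusted p = 7.44e-08 from edgeR), and its levels followed the genotype labels in all 9 libraries. Libraries of 1 genotype differed in other respects. Ddx3y, a Y-linked gene, was high in replicates 1 and 4 of DJ-1+/+ (121 and 113 counts) and replicate 5 of DJ-1-/- (152 counts), with at most 4 counts in the other 6 libraries. Xist, expressed from the inactive X chromosome, had at most 2 counts in those 3 libraries and between 146 and 193 in the others. DJ-1+/+ replicates 1 and 4 also stood apart from the other 7 libraries in the summed level of 16 genes of the choroid plexus, the tissue that makes cerebrospinal fluid. This sum was 716 and 1457 cpm there and between 403 and 555 cpm elsewhere. Replicate 4 was the highest library in all 16 genes. Replicate 1 was above the other 7 in Ttr (216 cpm against at most 134 cpm), but not in Kcnj13, Clic6, Enpp2, Otx2, Prlr, Kcne2 or Tmem72. Results are therefore also given without these 2 libraries.

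Ptgds was the most abundant of the 10 genes and Lum the least abundant with counts. In DJ-1+/+ mice the order of the mean levels was Ptgds (347 ± 26.9 cpm, SD, n = 4), Mgp (118 ± 39.0), Dcn (113 ± 12.9), Col1a2 (98.2 ± 22.7), Igfbp2 (73.2 ± 12.6), Col1a1 (34.6 ± 15.9), Aldh1a2 (20.8 ± 13.5), Col3a1 (15.6 ± 4.96) and Lum (5.2 ± 1.5). In DJ-1-/- mice it was Ptgds (338 ± 36.6 cpm, SD, n = 5), Dcn (111 ± 18.3), Mgp (110 ± 25.6), Col1a2 (94.7 ± 17.3), Igfbp2 (64.9 ± 12.0), Col1a1 (30.9 ± 11.1), Aldh1a2 (24.9 ± 13.3), Col3a1 (19.2 ± 8.04) and Lum (4.89 ± 3.48). Mgp and Dcn differed in mean by less than the larger of their SDs in both genotypes, as did Aldh1a2 and Col3a1, and their order also changed from library to library. Dcn and Col1a2, and Col1a1 and Aldh1a2, likewise differed by less than the larger SD, but Dcn was above Col1a2 in all 9 libraries, and Col1a1 had at least as many counts as Aldh1a2 in all 9.

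**Figure D1:**
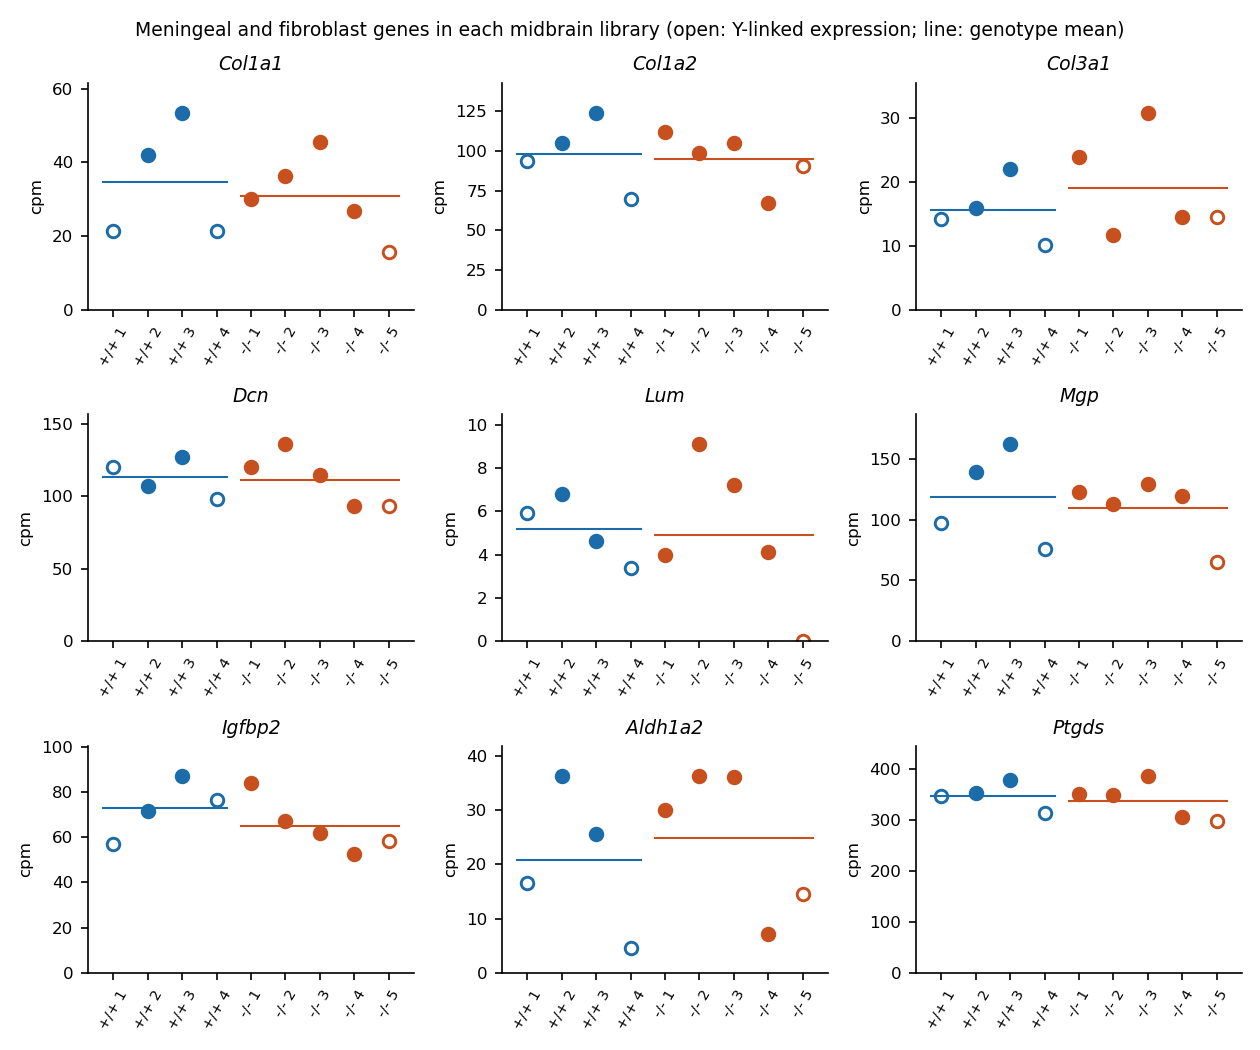
Level of the 9 counted genes in each library, 1 panel per gene, with cpm on the vertical axis starting at 0 and the library's genotype and replicate on the horizontal axis; blue circles are DJ-1+/+, orange circles DJ-1-/-, open circles the 3 libraries with Y-linked expression, and lines the genotype means. Points of both genotypes overlap in every panel, and Col1a1 spans 15.6 to 53.5 cpm, Aldh1a2 4.51 to 36.4 cpm and Ptgds only 297 to 387 cpm.

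Col1a1 and Col1a2 encode the 2 chains of type I collagen. Col1a1 (chr11:94936224-94953042, plus strand, GRCm38) was at 21.4, 42.1, 53.5 and 21.4 cpm in DJ-1+/+ replicates 1 to 4 and at 30, 36.4, 45.4, 26.9 and 15.6 cpm in DJ-1-/- replicates 1 to 5. The highest library was a DJ-1+/+ one and the lowest a DJ-1-/- one, but DJ-1+/+ replicates 1 and 4 lay below 4 of the 5 DJ-1-/- libraries. The log2 fold change, DJ-1-/- minus DJ-1+/+, was −0.17 (standard error 0.30, 95% interval −0.81 to 0.47, adjusted p = 1 from edgeR).

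Col1a2 (chr6:4504814-4541544, plus strand) was at 93.8, 105, 124 and 70.0 cpm in DJ-1+/+ and at 112, 98.3, 105, 67.2 and 90.6 cpm in DJ-1-/- mice. The lowest library of each genotype, DJ-1+/+ replicate 4 and DJ-1-/- replicate 4, were close to each other. The log2 fold change was −0.05 (standard error 0.15, 95% interval −0.38 to 0.28, adjusted p = 1 from edgeR). Col1a2 was counted more often than Col1a1 in every library, with 820 against 276 counts over the 9 mice.

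Col3a1 (chr1:45311538-45349706, plus strand), the chain of type III collagen, a fibril of vessel walls and soft tissue, was at 14.3, 15.9, 22.1 and 10.2 cpm in DJ-1+/+ and at 24.0, 11.8, 30.9, 14.5 and 14.6 cpm in DJ-1-/- mice. DJ-1-/- replicates 1 and 3 were higher than every DJ-1+/+ library, whereas the other 3 lay within the DJ-1+/+ range. Its log2 fold change of 0.29 was the highest of the 9 genes (standard error 0.32, 95% interval −0.40 to 0.98, adjusted p = 1 from edgeR), and rested on 150 counts in all.

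Dcn and Lum encode decorin and lumican, small leucine-rich proteoglycans that sit on collagen fibrils and set their spacing. The genes are neighbours on the plus strand of chromosome 10, Dcn from 97479609 to 97518143 and Lum from 97565128 to 97572703, and their levels differed widely, with 957 counts of Dcn and 43 of Lum over the 9 libraries. Dcn was at 120, 107, 127 and 98.2 cpm in DJ-1+/+ and at 120, 136, 115, 93.0 and 93.5 cpm in DJ-1-/- mice (log2 fold change −0.02, standard error 0.12, 95% interval −0.26 to 0.23, adjusted p = 1 from edgeR). Dcn was thus the most even of these matrix genes, and its interval was among the narrowest.

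Lum had 5, 6, 4 and 3 counts in DJ-1+/+ and 4, 10, 7, 4 and 0 counts in DJ-1-/- mice. The 0 of 1026201 counts in DJ-1-/- replicate 5 allows a level of up to 2.92 cpm, which is close to the 3.39 cpm of DJ-1+/+ replicate 4. Its log2 fold change of −0.08 had an interval from −1.33 to 1.17 (standard error 0.59, adjusted p = 1 from edgeR), so a change of 2-fold in either direction lay inside the interval and was not detectable at this depth.

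Mgp, matrix Gla protein, is an inhibitor of calcification made by fibroblasts and vascular smooth muscle. The gene (chr6:136872435-136875823, minus strand) was at 97.4, 139, 162 and 75.6 cpm in DJ-1+/+ and at 123, 113, 129, 119 and 65.3 cpm in DJ-1-/- mice. In DJ-1-/- mice 4 of the 5 libraries lay close together between 113 and 129 cpm, with replicate 5 far below them. Its log2 fold change was −0.11 (standard error 0.19, 95% interval −0.52 to 0.30, adjusted p = 1 from edgeR).

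Igfbp2 encodes a secreted protein that binds insulin-like growth factors and limits their access to the receptor, and is made by astrocytes and choroid plexus as well as by the meninges. The gene (chr1:72824503-72852474, plus strand) was at 57.0, 71.6, 87.3 and 76.7 cpm in DJ-1+/+ and at 84.1, 67.4, 61.9, 52.7 and 58.5 cpm in DJ-1-/- mice. In DJ-1-/- mice, replicate 1 was among the high libraries, replicate 4 lay below every DJ-1+/+ library, and the other 3 lay in the DJ-1+/+ range. The log2 fold change was −0.17 (standard error 0.15, 95% interval −0.49 to 0.15), and its p of 0.268 (adjusted p = 1, edgeR) was the smallest of the 9 genes.

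Igf2 encodes insulin-like growth factor 2, an imprinted growth factor that the meninges and choroid plexus keep on expressing in the adult. It was listed with a count in 0 of 9 libraries. The gene lies on chr7:142650766-142666816 on the minus strand, and its 3′ end, where this kind of library is read, is shared with another annotated gene. In GENCODE M21 its last exon (chr7:142650766-142654052, 3287 bases, of which 237 code for protein) has 3284 bases in common with an exon of Gm49394, a protein-coding gene of the same strand (chr7:142650769-142654052). The first 30 bases of the 2 exons are printed in the direction of transcription. They are the same genomic bases annotated to both genes, and lie at the start of the shared stretch, not at the 3′ end where this kind of library is read.
Igf2: gacgacttccccagataccccgtgggcaag
Gm49394: gacgacttccccagataccccgtgggcaag

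Gm49394 was also listed in no library, and Igf2os, on the opposite strand, had 4 counts in all. Of the last 300 bases of the Igf2 transcript, 99% lay inside the exon of Gm49394, whereas for the other 9 genes 0% lay inside an exon of another gene of the same strand. Across the annotation, 447 protein-coding genes had at least 90% of this 3′ end inside a same-strand exon of another gene, and 291 of them (65.1%) were listed in no library, with a median of 0 counts. Among the 21470 protein-coding genes whose 3′ end lay outside such exons, 4468 (20.8%) were listed in no library and the median was 152 counts over the 9 libraries. Hence the missing value of Igf2 cannot be read as a low level, and how the counting treated reads that fit both genes was not tested.

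Aldh1a2 encodes retinaldehyde dehydrogenase 2, which makes retinoic acid, and is a known marker of the meninges in the brain. The gene (chr9:71215789-71296243, plus strand) was at 16.6, 36.4, 25.6 and 4.51 cpm in DJ-1+/+ and at 30, 36.4, 36.1, 7.23 and 14.6 cpm in DJ-1-/- mice. Both genotypes held high and low libraries, and the highest level was 8.07 times the lowest, which was 4 counts in DJ-1+/+ replicate 4. The log2 fold change was 0.26 (standard error 0.46, 95% interval −0.70 to 1.23, adjusted p = 1 from edgeR).

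Ptgds encodes lipocalin-type prostaglandin D synthase, which makes prostaglandin D2 and also carries lipophilic molecules in the cerebrospinal fluid. Besides the meninges it is expressed in oligodendrocytes and choroid plexus. The gene (chr2:25466709-25470046, minus strand) was at 347, 352, 378 and 313 cpm in DJ-1+/+ and at 351, 348, 387, 306 and 297 cpm in DJ-1-/- mice, all within 1.30 times of each other. Its log2 fold change was −0.04 (standard error 0.08, 95% interval −0.21 to 0.13, adjusted p = 1 from edgeR).

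The upper end of the count scale was narrow in these libraries, which bears on Ptgds. Ptgds had a mean of 324 counts per library and ranked 41st of all genes, while genes that are usually far more abundant were close above it, Mbp with a mean of 494 counts, Malat1 with 398, Actb with 396 and mt-Co1 with 385. Malat1, Actb and mt-Co1 were chosen for this after their values were seen. Only 63 genes had a mean above 300 counts. Whether abundant transcripts were undercounted, which would also narrow their differences between libraries, was not tested.

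**Figure D2:**
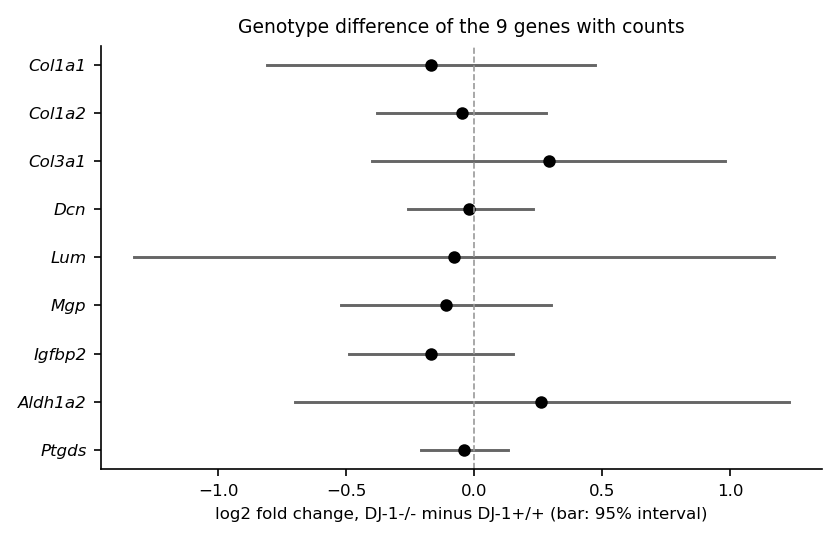
Genotype difference of the 9 counted genes as log2 fold change, DJ-1-/- minus DJ-1+/+, on the horizontal axis, with 1 gene per line; points are edgeR estimates and bars their 95% intervals. Every interval spans 0, from the narrow one of Ptgds (−0.21 to 0.13) to the wide one of Lum (−1.33 to 1.17).

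Of the 9 genes, 2 had a positive and 7 a negative log2 fold change, with a median of −0.05. Over all genes tested, 9386 were positive and 8741 negative with a median of 0.01. At an adjusted p under 0.05, 1 gene of the 18127 (0.00552%) was called, Park7, and at an unadjusted p under 0.05 there were 511 (281 higher and 230 lower in DJ-1-/-). The genotypes did not overlap in cpm for 0 of the 9 genes and for 1.25% of all genes tested.

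Libraries that stood apart or carried Y-linked expression moved these differences. Without DJ-1+/+ replicates 1 and 4, the log2 fold change of Mgp was −0.45 (unadjusted p of 0.0237, adjusted p = 0.999, edgeR) and that of Col1a1 −0.63 (unadjusted p of 0.0493, adjusted p = 0.999, edgeR). That of Col1a2 was then −0.27, Col3a1 0.01, Dcn −0.06, Lum −0.22, Igfbp2 −0.29, Aldh1a2 −0.31 and Ptgds −0.11, so that the median became −0.27, 8 of the 9 genes were negative, and Aldh1a2 changed sign. The libraries left out were the lowest of the DJ-1+/+ ones in the summed level of these genes (773 and 673 cpm) and the DJ-1+/+ ones with Y-linked expression, while DJ-1-/- replicate 5, with Y-linked expression and the lowest sum of all (650 cpm), was kept, so a shift towards lower values in DJ-1-/- follows from the choice. With a term for Y-linked expression in the model and all 9 libraries, Mgp was at −0.33 (unadjusted p of 0.00313, adjusted p = 1, edgeR) and Col1a1 at −0.45 (unadjusted p of 0.04, adjusted p = 1, edgeR), while the median was −0.13. In these fits 2.66% and 2.53% of all genes tested had an unadjusted p under 0.05. Neither gene passed the adjusted threshold under these settings, and the fit without the 2 libraries left only 2 DJ-1+/+ mice.

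Most of the 9 genes varied between mice more than the typical gene did. After scaling to a common library total, the ratio of variance to mean over the 9 libraries, which is 1 for Poisson counts, was 7.65 for Mgp, 6.62 for Aldh1a2, 4.68 for Col1a1, 3.42 for Col1a2, 2.68 for Ptgds, 2.43 for Col3a1, 2.07 for Igfbp2 and 1.94 for Dcn. The median of the 12637 genes with at least 90 counts was 1.12. For the 3126 genes with a mean of 90 to 150 counts per library, the level of Mgp, Dcn and Col1a2, it was 0.889, below that of Poisson counts, so 1 is not a floor in these data, and the cause was not tested. Mgp was above 97.8% of the 12637 genes with at least 90 counts, Aldh1a2 above 97.3% and Col1a1 above 95.5%. Dcn, the lowest of the 8, was above 79.3%. Lum, with 43 counts, had a ratio of 1.31, above 59.1% of all genes tested. This ratio grows with the level where the relative spread is fixed, and Ptgds, with the highest level, came behind Mgp, Aldh1a2, Col1a1 and Col1a2.

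**Figure D3:**
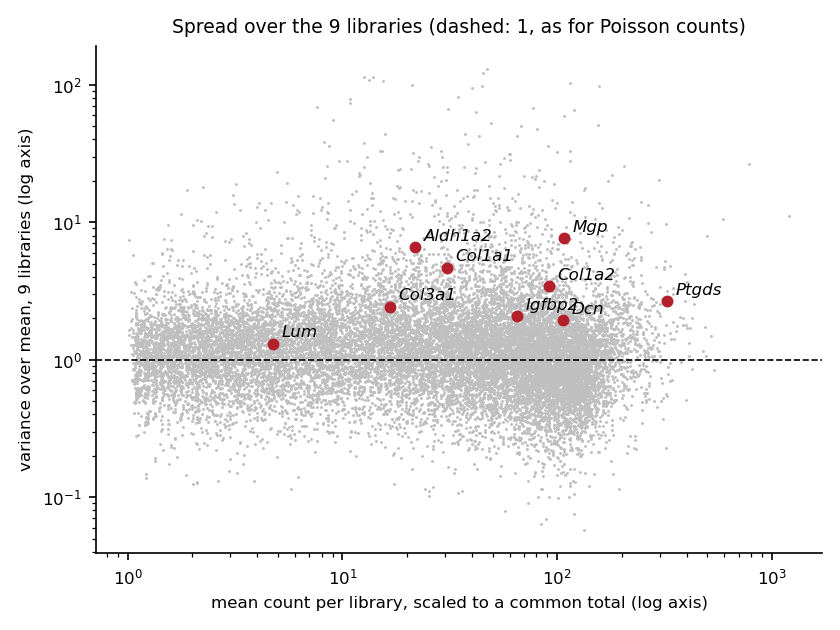
Spread of every tested gene over the 9 libraries, as the variance over mean of counts scaled to a common total (vertical log axis) against the mean count per library (horizontal log axis); grey points are genes, red points the 9 named genes, and the dashed line is at 1, as for Poisson counts. Mgp at 7.65 and Aldh1a2 at 6.62 lie near the top of the cloud, Dcn at 1.94 and Lum at 1.31 nearer to its centre.

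This spread was shared in part between the genes. Their summed level was 773, 875, 984 and 673 cpm in DJ-1+/+ replicates 1 to 4 and 879, 856, 917, 690 and 650 cpm in DJ-1-/- replicates 1 to 5, with 42.2% of the sum from Ptgds. The 5 highest libraries were DJ-1+/+ replicates 2 and 3 and DJ-1-/- replicates 1, 2 and 3, all with Xist, and the 4 lowest were the 3 with Y-linked expression and DJ-1-/- replicate 4. Gene by gene, 8 of 9 were above their own median in DJ-1+/+ replicate 2, and 7 in each of DJ-1+/+ replicate 3 and DJ-1-/- replicates 1 and 3. Conversely, 8 of 9 were below it in each of DJ-1+/+ replicate 4 and DJ-1-/- replicates 4 and 5, and 7 in DJ-1+/+ replicate 1. DJ-1-/- replicate 2 was mixed, with 4 above and 2 below, and held the highest levels of Dcn, Lum and Aldh1a2. The 3 libraries with Y-linked expression thus had lower sums than 5 of the 6 with Xist, and what part sex or the dissection had in this was not tested.

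Between pairs of genes the likeness was uneven. Over the 9 libraries, Pearson's r of log2(cpm + 1) was above 0 for all 28 pairs of the 8 genes with at least 90 counts, with a median of 0.59. It ran from 0.23 for Col3a1 and Igfbp2 to 0.92 for Col1a1 and Mgp. All pairs share the same libraries and library totals, and r is given as a description. The median r of each of the 8 genes with all 12636 others was between 0.02 and 0.05.

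The genes most like each of these in their levels over the 9 libraries were mostly not known fibroblast genes. For Col1a1 they were Aldh4a1 (r = 0.93) and Mgp (0.92). For Col1a2 they were Rbm28 (0.96) and Kazald1 (0.95), and the nearest of the other named genes, Aldh1a2, came 21st with 0.87. Dcn was most like Lama2 (0.96), which encodes a laminin chain of basement membranes, and Skp2 (0.96), and Ptgds came 219th with 0.77. Mgp was most like Neto1 (0.97) and Entpd3 (0.96), with Col1a1 in 14th place. Aldh1a2 was nearest to Znrf2 (0.97) and Fam149a (0.97), and Col1a2 came 39th with 0.87. Ptgds was nearest to Gm43321 (0.94) and Nmd3 (0.94), with Col1a1 42nd at 0.84. For Col3a1 the nearest were Fbxw5 (0.95) and Nmi (0.90), with Ptgds 192nd at 0.70. For Igfbp2 they were Psmd12 (0.91) and Serp2 (0.91), with Col1a2 only 752nd at 0.54. With 9 libraries and 12636 genes, high values of r can arise among unrelated genes, and nothing is read from this order.

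A further 34 fibroblast and meningeal genes, fixed as a list beside the 10, were all counted, and 33 were tested. Of these 16 had a positive and 17 a negative log2 fold change, with a median of −0.02, and 0 passed an unadjusted p of 0.05 in edgeR. Fn1, fibronectin, was the most abundant, with 77.0 ± 25.5 cpm in DJ-1+/+ (SD, n = 4) against 77.8 ± 15.8 cpm in DJ-1-/- mice (SD, n = 5). Col5a1, a chain of the collagen that starts fibrils, had the highest log2 fold change (0.58, standard error 0.49), and Crabp2, which carries retinoic acid inside the cell, the lowest (−0.66, standard error 0.40). Neither passed the test. Without DJ-1+/+ replicates 1 and 4, 4 were positive and 29 negative with a median of −0.28, and 2 passed an unadjusted p of 0.05 in edgeR. With the term for Y-linked expression, 8 were positive and 25 negative with a median of −0.16, and 2 passed it. In these 2 fits 2.66% and 2.53% of all genes tested passed it. Leaving out DJ-1+/+ replicate 1 or 4, or DJ-1-/- replicate 2 or 3, gave 1 gene that passed. Between 1.9% and 3.22% of all genes tested passed in these fits. The split turned the other way with the replicate block (19 positive and 14 negative, median 0.07), without DJ-1+/+ replicate 2 (21 and 12, median 0.17) or 3 (20 and 13, median 0.07), and without DJ-1-/- replicate 4 (20 and 13, median 0.05) or 5 (18 and 15, median 0.04).

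The list includes transporters by which meningeal fibroblasts are recognised, and these were counted in all 9 libraries. Slc6a13, a GABA transporter, had 27, 50, 33 and 16 counts in DJ-1+/+ and 33, 47, 36, 29 and 25 in DJ-1-/- mice. Slc22a6, an organic anion transporter, had 20, 30, 26 and 13 counts in DJ-1+/+ and 22, 48, 29, 21 and 18 in DJ-1-/- mice. Slc13a4, a sulfate transporter, had 8, 31, 29 and 29 counts in DJ-1+/+ and 30, 59, 36, 19 and 14 in DJ-1-/- mice. These 3 transporters were singled out for what they mark, outside the rule for named genes. Slc6a13 and Slc22a6 were highest in DJ-1+/+ replicate 2 and DJ-1-/- replicate 2 and lowest in DJ-1+/+ replicate 4. Slc13a4 was also highest in DJ-1-/- replicate 2, but was at its median of 32.7 cpm in DJ-1+/+ replicate 4 and lowest in DJ-1+/+ replicate 1.

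The summed level of the 34 genes was 567, 994, 836 and 565 cpm in DJ-1+/+ and 767, 868, 883, 565 and 546 cpm in DJ-1-/- mice. The same 5 libraries as for the named genes were the highest. In DJ-1+/+ replicate 2, 27 of the 33 tested genes were above their own median, against only 3 and 5 in replicates 4 and 5 of DJ-1-/-. The difference between mice was again present within each genotype, and the highest sum was 1.82 times the lowest.

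The pathways around the named genes were given by lists of their other members. Of the 16 genes that modify, cut or cross-link collagen chains, 10 were positive and 6 negative, the median was 0.02, and 0 passed an unadjusted p of 0.05 in edgeR. With thinned counts 5 were positive and 11 negative, with a median of −0.03, and without DJ-1-/- replicate 1 the split was 7 and 9. Without DJ-1+/+ replicates 1 and 4 it was 12 and 4 with a median of 0.10, and 0 passed. P4hb, a subunit of the enzyme that hydroxylates prolines of collagen, was the most abundant at 106 ± 3.12 cpm in DJ-1+/+ (SD, n = 4) against 105 ± 9.04 cpm in DJ-1-/- mice (SD, n = 5). The extremes were cross-linking enzymes with few counts: Lox had 1, 3, 3 and 3 counts in DJ-1+/+ and 11, 4, 6, 2 and 1 in DJ-1-/- mice, and Loxl2 had 2, 1, 3 and 9 against 5, 1, 4, 1 and 3.

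Among 11 genes of insulin-like growth factor signalling other than Igf2 and Igfbp2, 7 were positive and 4 negative with a median of 0.05, and 0 passed an unadjusted p of 0.05 in edgeR. The split turned to 4 and 7 with the replicate block (median −0.04) and without DJ-1-/- replicate 5 (median −0.05), and to 5 and 6 without DJ-1+/+ replicate 2. Without DJ-1+/+ replicates 1 and 4 it was 9 and 2 with a median of 0.06, and 0 passed. Igf1r, the receptor, was the most abundant at 153 ± 13.2 cpm in DJ-1+/+ (SD, n = 4) against 148 ± 6.44 cpm in DJ-1-/- mice (SD, n = 5). Further binding proteins gave the extremes, Igfbp6 with a log2 fold change of 0.37 (standard error 0.42) and Igfbp5 with −0.05 (standard error 0.09). Igfbp6 ran from 6 to 22 counts in DJ-1+/+ and from 7 to 32 counts in DJ-1-/- mice.

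Of 18 genes of retinoic acid supply and response, 16 were tested, and Cyp26c1, an enzyme that degrades retinoic acid, was listed in no library. The tested genes split into 7 positive and 9 negative, with a median of −0.04, and 0 passed an unadjusted p of 0.05 in edgeR. With the term for Y-linked expression in the model, 6 were positive and 10 negative, and 3 passed, against 2.53% of all genes tested. Without DJ-1+/+ replicates 1 and 4 the split was also 6 and 10, and 0 passed. The split turned to 10 and 6 with the replicate block and without DJ-1-/- replicate 5, and to 9 and 7 without DJ-1+/+ replicate 2. Without DJ-1+/+ replicate 4 or DJ-1-/- replicate 2, 1 gene passed, against 3.22% and 1.9% of all genes tested. Aldh1a1, a related dehydrogenase that dopaminergic neurons express, was far more abundant than Aldh1a2, at 145 ± 10.6 cpm in DJ-1+/+ (SD, n = 4) against 156 ± 11.9 cpm in DJ-1-/- mice (SD, n = 5). It was also steadier, with 1.30 times between its extreme libraries. Crabp1, a carrier like Crabp2, had the highest log2 fold change (0.35, standard error 0.62) and Stra6, a receptor for the retinol carrier, the lowest (−1.13, standard error 0.76), the latter on 23 counts in all.

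Of 7 genes that supply, sense or break down prostaglandin D2, 6 were tested, and the receptor gene Ptgdr2 was listed in no library. Of the tested genes 2 were positive and 4 negative, with a median of −0.13, and 0 passed an unadjusted p of 0.05 in edgeR. Without DJ-1+/+ replicate 2 the split was 3 and 3 (median −0.03) and 1 passed. In that fit 4.1% of all genes tested passed. The split was also 3 and 3 with the replicate block and without DJ-1+/+ replicate 3 or DJ-1-/- replicate 3 or 5. Without DJ-1-/- replicate 2 it was 1 and 5 (median −0.24). Leaving out DJ-1+/+ replicates 1 and 4 also gave 1 and 5 (median −0.15), with 0 passing. Ptgs1, a cyclooxygenase, gave 50.5% of the list's level, at 53.6 ± 7.98 cpm in DJ-1+/+ (SD, n = 4) against 54.8 ± 2.17 cpm in DJ-1-/- mice (SD, n = 5). Ptgs2, the inducible cyclooxygenase, had the highest value (0.42, standard error 0.80) and Hpgd, which inactivates prostaglandins, the lowest (−0.61, standard error 0.41).

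Markers of border macrophages, the macrophages of the meninges and perivascular spaces, lay highest in the same 5 libraries. Their summed level was 27.3, 76.1, 54.7 and 31.6 cpm in DJ-1+/+ and 46.0, 66.5, 58.8, 38.2 and 34.1 cpm in DJ-1-/- mice. Of the 6 markers, 4 were positive and 2 negative, with F13a1 at 0.68 (standard error 0.40) and Cd163 at −1.13 (standard error 0.68), and 0 passed an unadjusted p of 0.05 in edgeR. With the term for Y-linked expression 3 were positive and 3 negative with 2 such genes, and without DJ-1+/+ replicates 1 and 4, 2 of 5 were positive and 3 negative with 1. In these 2 fits 2.53% and 2.66% of all genes tested had such a p. The replicate block and thinned counts also gave 1, as did leaving out DJ-1+/+ replicate 1 or DJ-1-/- replicate 2 or 5. Between 1.9% and 3.64% of all genes tested had such a p in these fits. Of the 5 markers tested without DJ-1+/+ replicate 1 or DJ-1-/- replicate 2, 2 were positive and 3 negative. Mrc1, the most abundant, had 4, 18, 12 and 10 counts in DJ-1+/+ and 14, 21, 13, 8 and 15 in DJ-1-/- mice. The mean of the sums was 47.4 cpm in DJ-1+/+ (SD 22.6) and 48.7 cpm in DJ-1-/- (SD 13.7), so that mice of 1 genotype differed by more than the genotypes did.

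**Figure D4:**
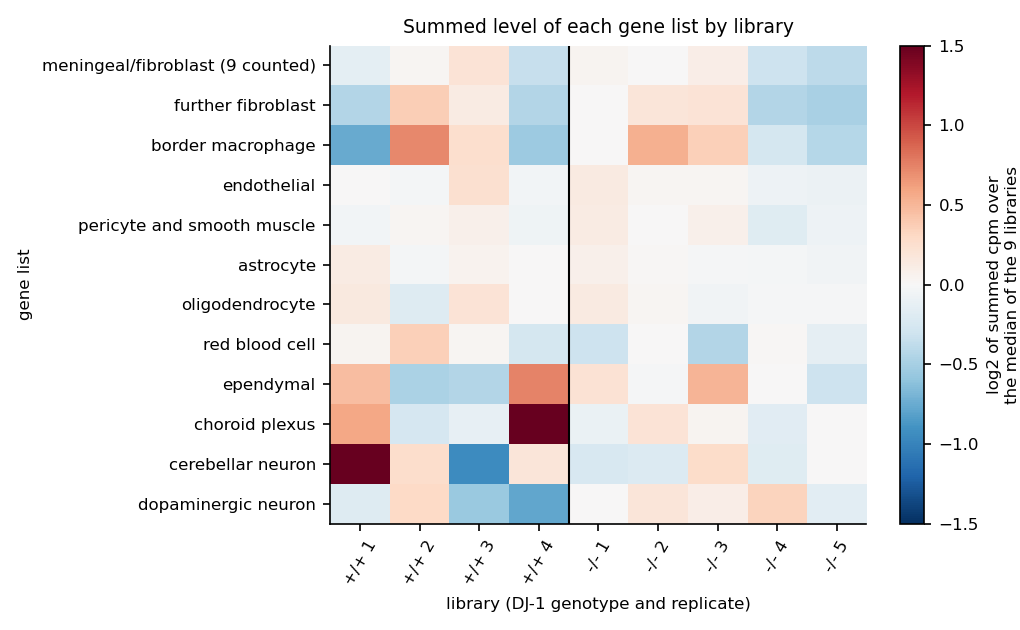
Summed level of each marker list in each library, with libraries on the horizontal axis, lists on the vertical axis and colour for the log2 ratio of the summed cpm to the median of the 9 libraries; the colour scale ends at 1.5 in either direction, and choroid plexus in DJ-1+/+ replicate 4 and cerebellar neurons in DJ-1+/+ replicate 1 go past it. The top 3 rows, named genes, further fibroblast genes and border macrophages, are highest in replicates 2 and 3 of DJ-1+/+ and replicates 1, 2 and 3 of DJ-1-/-.

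Choroid plexus markers ran differently. Their summed level was 716, 403, 441 and 1457 cpm in DJ-1+/+ and 448, 555, 494, 425 and 480 cpm in DJ-1-/- mice. The libraries with the highest choroid plexus sums, DJ-1+/+ replicates 4 and 1, were low in the fibroblast genes. All 16 markers had a negative log2 fold change, and 9 (Ttr, Folr1, Kcnj13, Kl, Clic6, Aqp1, F5, Cldn2 and Tmem72) passed an unadjusted p of 0.05 in edgeR, 0 of them an adjusted one. Over all genes tested, 2.82% passed the unadjusted threshold (1.27% lower in DJ-1-/-). Ttr, transthyretin, had 182, 25, 57 and 342 counts in DJ-1+/+ and 65, 147, 75, 31 and 89 in DJ-1-/- mice. Folr1, a folate receptor with the lowest fitted value, had 5, 0, 1 and 31 counts against 1, 2, 1, 1 and 0. Enpp2, the most abundant, gave 40.5% of the list and was closest to 0 with a log2 fold change of −0.13 (standard error 0.12), and oligodendrocytes express it too. Without DJ-1+/+ replicate 4, 5 of the 14 markers still tested were positive and 9 negative, and 0 passed an unadjusted p of 0.05. Without replicates 1 and 4 together, 8 of 13 were positive and 5 negative, and 0 passed. The count of 9 rose to 14 without DJ-1+/+ replicate 2, and to 13 without DJ-1+/+ replicate 3 or without the low-count filter. It fell to 6 with the replicate block or without DJ-1-/- replicate 3, to 5 with DESeq2 and to 3 with the term for Y-linked expression. Without DJ-1+/+ replicate 1 alone it was 8. In the changed fits named here, between 1.3% and 4.1% of all genes tested passed.

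Vascular markers spanned a narrower range but followed a like order. The markers of pericytes and smooth muscle were highest in the same 5 libraries as the named genes, and the endothelial ones had 4 of these 5 on top. The 10 endothelial markers summed to between 658 and 825 cpm, the highest 1.25 times the lowest, and 1 was positive and 9 negative, from Esam (0.18) to Cdh5 (−0.16) with Flt1 as the most abundant. The 10 markers of pericytes and smooth muscle summed to between 390 and 482 cpm, with Rgs5 the most abundant. Of the latter, 6 were positive and 4 negative, led by Acta2 (0.26), and Tagln, a smooth muscle actin-binding protein, had 12, 8, 9 and 7 counts in DJ-1+/+ against 6, 4, 10, 4 and 2 in DJ-1-/- mice, with an unadjusted p of 0.0334 (adjusted p = 1, edgeR). This list held 0 such genes without DJ-1+/+ replicate 1 or 3 or without DJ-1-/- replicate 2, 4 or 5. It also held 0 with the replicate block and without DJ-1+/+ replicates 1 and 4, and 2 without DJ-1+/+ replicate 2. Over all genes tested, 2.82% had such a p with all libraries, and between 1.9% and 4.1% in these changed fits. The split of the list turned to 3 and 7 without DJ-1+/+ replicate 1, and to 4 and 6 without DJ-1+/+ replicate 4 or DJ-1-/- replicate 1. Without DJ-1+/+ replicates 1 and 4 together it was 2 and 8 (median −0.15), and the endothelial split was 1 and 9. For the named fibroblast genes the highest sum was 1.51 times the lowest, against 1.25 for endothelial and 1.24 for pericyte and smooth muscle markers, a difference that was not tested. Ptgds, which other cell types also express, gave 42.2% of the sum of the named genes. For the 34 further fibroblast genes the highest sum was 1.82 times the lowest.

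Other cell types in the block were given by lists of their markers. Astrocyte markers, with Slc1a2 most abundant, summed to between 1459 and 1647 cpm, with 3 positive and 5 negative from Aldh1l1 (0.11) to Slc1a2 (−0.13). Oligodendrocyte markers, with Mbp most abundant, summed to between 2280 and 3016 cpm, with 4 positive and 6 negative, Mag (0.10) being the highest. Ependymal markers, led by Foxj1, summed to between 89.8 and 210 cpm, and ran from Mia (0.30) to Ak7 (−0.44) with 3 positive and 5 negative. None of these 3 lists held a gene with an unadjusted p under 0.05 in edgeR. Without DJ-1+/+ replicates 1 and 4 the ependymal list held 2, with 7 positive and 1 negative. The oligodendrocyte (6 and 4) and astrocyte (4 and 4) lists then held 0. All 8 ependymal markers were positive without DJ-1+/+ replicate 4 alone (median 0.35). The oligodendrocyte list held 1 such gene without DJ-1+/+ replicate 2, with 1 positive and 9 negative. It split 8 and 2 without DJ-1+/+ replicate 3. For astrocytes, RLE size factors and leaving out DJ-1-/- replicate 1 each gave 1 such gene. In the changed fits named here, between 2.52% and 4.1% of all genes tested had such a p.

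Blood, cerebellar and dopaminergic lists held such genes, and the dissection or blood content they mark was not tested as a part of the fibroblast pattern. Over all genes tested, 2.82% had an unadjusted p under 0.05 in edgeR, and between 1.3% and 4.1% in the changed fits named here. Red blood cell genes, with Hbb-bs most abundant, summed to between 382 and 664 cpm, and of 5 genes 1 was positive (Hba-a1, 0.01) and 4 negative, with Hba-a2 at −1.48 past an unadjusted p of 0.05, a call lost with DESeq2 and without DJ-1+/+ replicate 2 or DJ-1-/- replicate 1 or 3. Without DJ-1+/+ replicates 1 and 4 all 5 were negative and 3 had such a p, and 2 had with the term for Y-linked expression, with thinned counts, without the low-count filter and without DJ-1+/+ replicate 4. The haemoglobin genes are near-identical pairs, so the split of counts between Hba-a1 and Hba-a2 is uncertain. Cerebellar markers, with Cbln1 most abundant, summed to 711 cpm in DJ-1+/+ replicate 1 and between 80.3 and 186 cpm elsewhere. All 5 were negative and 4 (Gabra6, Pcp2, Cbln3 and Car8) had an unadjusted p under 0.05, with Gabra6 at 102 counts in DJ-1+/+ replicate 1 and at most 2 counts in each other library. Without that library 3 were tested, of which 2 were positive and 1 negative, and 0 had such a p, and with DESeq2 2 were tested and 1 had. Leaving out DJ-1+/+ replicates 1 and 4 together also left 3, with 1 positive and 2 negative, and 0 had such a p. Dopaminergic markers, with Ddc most abundant, summed to between 441 and 957 cpm. Of these 10, 9 were positive and 4 (Th at 0.61, Slc6a3 at 0.86, Ret at 0.25 and Pitx3, which had at most 1 count in each DJ-1+/+ library) passed an unadjusted p of 0.05 in edgeR, with Lmx1b (−0.19) as the negative one. These 4 calls became 0 with DESeq2, without DJ-1+/+ replicate 3 or 4, without DJ-1-/- replicate 2 or 4, and without DJ-1+/+ replicates 1 and 4 together, and rose to 7 with the replicate block and to 6 without DJ-1+/+ replicate 2 or without the low-count filter. Dopaminergic markers were lowest in DJ-1+/+ replicates 4, 3 and 1, of which replicate 3 was the highest in the named fibroblast genes.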

How the data were processed

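RNA from midbrain including the SNpc of 9 mice was made into 3′ mRNA-seq libraries with UMIs. The authors deposited UMI counts per gene as whole numbers without normalization, listing genes with at least 1 count. The submitters' processing notes name fastp 0.20.0, STAR 2.7.3a, Subread with featureCounts 2.0.0, UMI-tools 1.0.0 and GRCm38. The annotation, the strand setting and the treatment of reads that fit several genes are not given in the sources used here. Antisense and overlapping genes may therefore share reads.

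The deposited counts were joined by Ensembl identifier, with 0 for a gene not listed, and 26576 of 26602 identifiers matched GENCODE M21, the source of symbols, positions and sequences. Library totals ran from 841974 to 1098125. Replicates are separate mice. The 18127 genes reaching 10 counts in all were tested with edgeR 4.0.16 (TMM, glmQLFit and glmQLFTest, genotype only, Benjamini-Hochberg) in R 4.3.3. Standard errors were obtained as log2 fold change over the root of F. Log2 fold changes of genes with few counts are held back by edgeR's prior count. Tables and figures were made in Python 3.11.15. DESeq2 1.42.0 was an alternative. Both fits were tested on simulated data with known changes.

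The genes and lists were chosen with earlier results of these data known. Named genes are the 10 genes, Park7, Xist and Ddx3y, the most abundant gene, the extremes and the genes with an unadjusted p under 0.05 of each list, and the 2 tested genes most like each of the 10 with at least 90 counts. 1 gene that this rule names is not reported here. Alternatives were RLE size factors, library totals, DESeq2, other count filters, the replicate number as a block, a term for Y-linked expression, counts thinned to 841974 per library, each library left out in turn, and DJ-1+/+ replicates 1 and 4 left out together.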

Additional observations from a re-analysis of the deposited data

Results flagged for a closer look

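In 48 groups of 4 or 5 libraries, the gap between an extreme library and its nearest neighbour was compared with the range of the group, and 4 groups passed Dixon's 95% critical value, where chance gives about 1 in 20, or 2.4. Mgp was at 65.3 cpm in DJ-1-/- replicate 5, with the other DJ-1-/- libraries at 113 cpm or above, and this library was also the lowest in Col1a1, Lum and Ptgds. The summed level of the prostaglandin D2 genes was 100 cpm in DJ-1+/+ replicate 4, against 115 to 118 cpm in the other DJ-1+/+ libraries. Endothelial markers summed to 825 cpm in DJ-1+/+ replicate 3, the library with the highest summed level of the named fibroblast genes, against 677 to 697 cpm in the other 3. Cerebellar markers summed to 711 cpm in DJ-1+/+ replicate 1, against at most 185 cpm in the other 3.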

How the results depend on the processing

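At an unadjusted p under 0.05, 511 genes were counted as reported, 235 with DESeq2, 802 without a low-count filter and between 338 and 732 with a library left out, the lowest without DJ-1-/- replicate 2. At an adjusted p under 0.05 the count was 1 as reported, 36 without the filter, 8 with the replicate block, and between 1 and 2 with a library left out (2 without DJ-1+/+ replicate 2 or 3). Of the 9 named genes, 0 had an unadjusted p under 0.05 as reported and with each library left out, and 2 (Mgp and Col1a1) with a term for Y-linked expression and without DJ-1+/+ replicates 1 and 4, none of them at an adjusted p under 0.05. Their median of −0.05 ran from −0.15 to 0.07 with a library left out. Signs turned for 7 of the 9 genes. With the replicate block, Col1a1 was 0.04, Dcn 0.03, Lum 0.21 and Mgp 0.04. Aldh1a2 was −0.01 with the term for Y-linked expression and −0.31 without DJ-1+/+ replicates 1 and 4. With a library left out, Col1a1 ran from −0.34 to 0.12, Col1a2 from −0.18 to 0.08, Dcn from −0.10 to 0.04, Lum from −0.44 to 0.24, Mgp from −0.28 to 0.07, Aldh1a2 from −0.07 to 0.68 and Ptgds from −0.09 to 0.00, whereas Col3a1 (0.06 to 0.50) and Igfbp2 (−0.28 to −0.08) kept their sign. Leaving out DJ-1+/+ replicate 3, the library highest in these genes, gave a median of 0.07 with 7 of 9 positive. RLE size factors, library totals and thinned counts turned no sign. Replicate numbers are not stated to pair mice, and deviations of same-numbered mice correlated at 0.28, 0.05, −0.09 and −0.18. Lum has no value under a filter of 45 counts. Depth limits Lum, which had 43 counts in all and a variance over mean of 1.31.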
